A study of Mus musculus with 6 samples.

Results

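The receptors for dopamine, serotonin, acetylcholine, noradrenaline and adrenaline, adenosine and the opioid peptides were examined in the ganglionic eminences of mouse embryos. These swellings of the ventral embryonic forebrain give rise to striatal projection neurons and to interneurons. Members were chosen by gene symbol alone: every row of the count table named as a dopamine (Drd), serotonin (Htr), muscarinic (Chrm), nicotinic (Chrn), adrenergic (Adra and Adrb), adenosine (Adora) or opioid (Opr) receptor gene. The symbols matched 57 of 55416 genes. Total RNA was sequenced from E13.5 embryos (days of embryonic development) as 3 libraries labelled Dlx1/Dlx2 double knockout and 3 labelled wild type, from littermates. Dlx1 and Dlx2 encode homeodomain transcription factors of the ventral forebrain. The labels give neither the alleles, the strain, nor which of the eminences were taken, and do not say whether each library came from 1 embryo, so the p-values below measure the spread between libraries. Expression was compared to find which receptor genes differed without Dlx1 and Dlx2.

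Most of these receptors are G protein-coupled. Those that act through Gs raise cyclic AMP, those that act through Gi/o lower it, and those that act through Gq/11 release calcium from internal stores. Nicotinic receptors and the serotonin receptor made with Htr3a are instead ion channels assembled from several subunits, so which subunit genes a cell uses sets the kind of channel it makes. In the mature striatum, projection neurons of the direct pathway express Drd1 and those of the indirect pathway Drd2 and Adora2a, and muscarinic, opioid and serotonin receptors modulate both. At the embryonic age studied here the first projection neurons are being born and the dopamine and serotonin fibres from the brainstem are only arriving.

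Total counts ranged from 56618090 to 70114173 per library, and a count of 3 corresponded to 0.0432 to 0.052 CPM (counts per 1000000 reads, scaled for library size and composition by TMM, the unit of all levels below). The targeted genes were low in every library labelled double knockout, with Dlx1 at 18.6% and Dlx2 at 2.94% of the wild-type mean. Of 10 genes that mark ganglionic eminence, all were detected, 6 were lower in the double knockout (Gad1, Gad2, Slc32a1, Lhx6, Ebf1 and Meis2) and 3 higher (Nkx2-1, Gsx2 and Isl1). Their summed level was 1700 to 1810 CPM in wild-type libraries and 1220 to 1470 CPM in the others. The calls of Nkx2-1, Gsx2, Lhx6 and Meis2 were each lost when at least 1 single library was left out (adjusted p of up to 0.147, 0.0969, 0.118 and 0.0502). Markers of cortical excitatory neurons were present too, at a summed 982 to 993 CPM for the wild type against 771 to 793 CPM for the double knockout. Single libraries had features of their own. Wild-type replicate 1 held 1540 reads of Ttr, a gene of the choroid plexus chosen after its values were seen, against 0 to 10 in the other 5 libraries. By chi-square per gene it did not stand apart, at 21.1 and 20.9 from wild-type replicates 2 and 3, against 22.2 between those. Double knockout replicate 3 differed from the other libraries of its group by a chi-square of 30.4 and 37.1 per gene, against 13.3 between those, and it held the lowest value of its group for 25 of 43 tested receptor genes (58.1%, against 38.9% of all tested genes). Y-linked transcripts were at 207 to 214 CPM in wild-type replicate 1 and double knockout replicates 2 and 3 and at 0.0156 to 0.171 CPM in the others. The part of these features in the results was not tested beyond the fits given below. In bulk tissue, fewer cells of a type and less RNA per cell cannot be told apart.

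Of the 57 receptor genes, 43 had enough reads to be tested. The remaining 14 (Adora3, Adra1d, Adra2b, Adrb3, Chrna1, Chrna6, Chrna9, Chrna10, Chrnb3, Drd5, Htr1d, Htr1f, Htr3b and Htr5b) had between 0 and 14 reads in any library, and Chrna9 had 0 in all 6, which allows up to 0.0432 to 0.052 CPM. Compared per kilobase of exon, 3 genes stood well above the others. Oprl1, the nociceptin receptor gene, was at 10.9 CPM per kb in the wild type, Chrnb2, a nicotinic subunit gene, at 10.6 and Chrna4, its usual partner, at 5.0. The next was the adrenergic receptor gene Adra2a at 2.75 CPM per kb, and the dopamine receptor genes Drd2 and Drd1 were at 1.23 and 0.627. A nicotinic pair and the nociceptin receptor gene thus had the highest receptor RNA levels per length in this tissue.

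**Figure D1:**
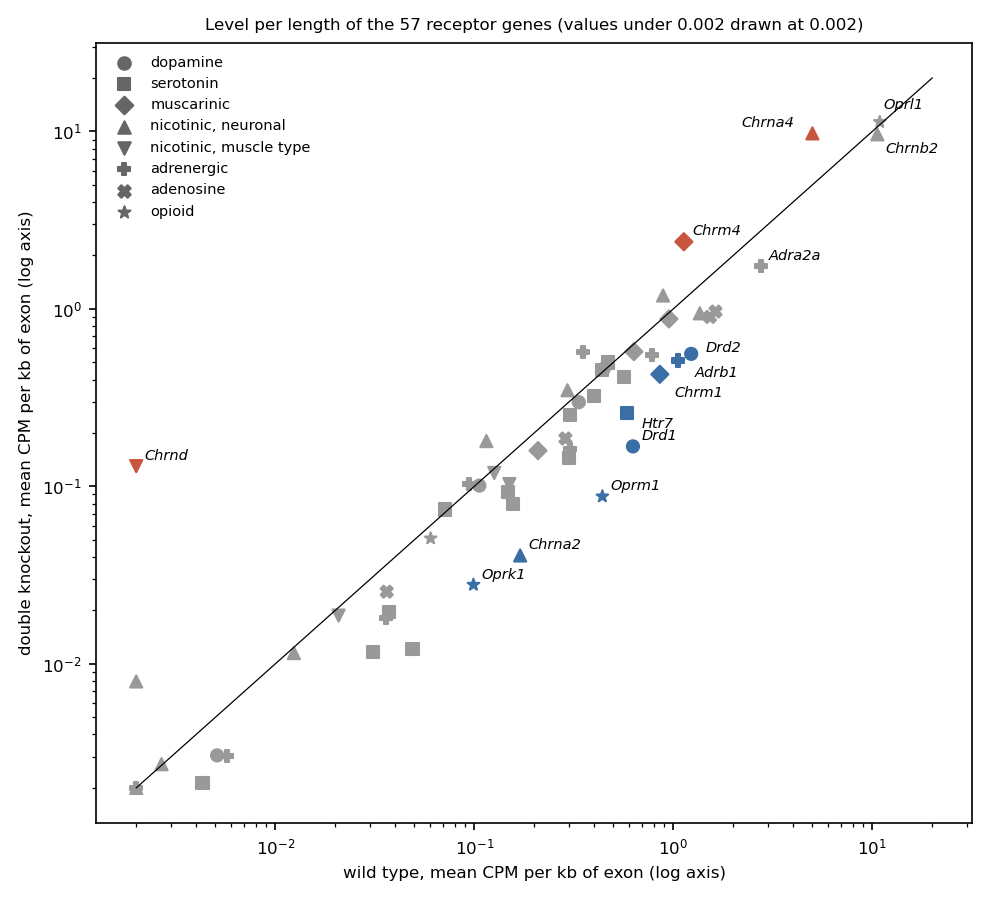
Mean level of each of the 57 receptor genes per kilobase of exon in the wild type (x axis) and the double knockout (y axis), both on log axes, with the line of equal level; symbols give the family, red marks genes higher and blue genes lower in the double knockout at an adjusted p under 0.05. Oprl1, Chrnb2 and Chrna4 lie at the top, and Chrnd lies at the left edge, where the lowest levels are drawn, because it had 0 reads in the wild type.

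In the double knockout 11 of the 43 tested genes differed (25.6%), against 2.68% of all 23628 tested genes, by the quasi-likelihood test of edgeR with Benjamini-Hochberg adjusted p below 0.05. In all 8 fell (Oprm1, Oprk1, Drd1, Drd2, Chrna2, Chrm1, Adrb1 and Htr7), or 18.6% of those tested against 1.34% of all genes. The 3 that rose were Chrna4, Chrm4 and Chrnd, or 6.98% against 1.34%. The libraries of the genotypes did not overlap for 20 receptor genes (46.5%), against 19.5% of all tested genes, and an unadjusted p under 0.05 was found for 19 (44.2%), against 13.3%. Chrnd could pass the filter on low counts only through the double knockout, where it was high, so its inclusion was not independent of its difference. When each library was left out in turn, 5 of the 11 (Chrna4, Oprm1, Oprk1, Drd1 and Chrnd) were called in all 6 fits. The other 6 were each lost in at least 3 of these fits, and the values are given with each gene. Receptor genes called numbered 5 without wild-type replicate 1 (1.27% of all genes), 5 without replicate 2 (1.35%) and 7 without replicate 3 (1.66%). They numbered 8, 6 and 13 without double knockout replicates 1, 2 and 3 (1.57%, 1.66% and 3.09% of all genes). There were 15 with DESeq2 (5.34% of all genes), 11 with scaling by total count (2.73%), 6 with the level of Y-linked genes as a covariate (1.53%) and 5 at an adjusted p under 0.01 (1.16%). The Y-linked covariate ended the calls of Chrm4 (adjusted p 0.0667), Chrm1 (0.0654), Adrb1 (0.0964), Htr7 (0.102) and Chrna2 (0.0589), and limma-voom that of Chrna2 (0.0659).

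**Figure D2:**
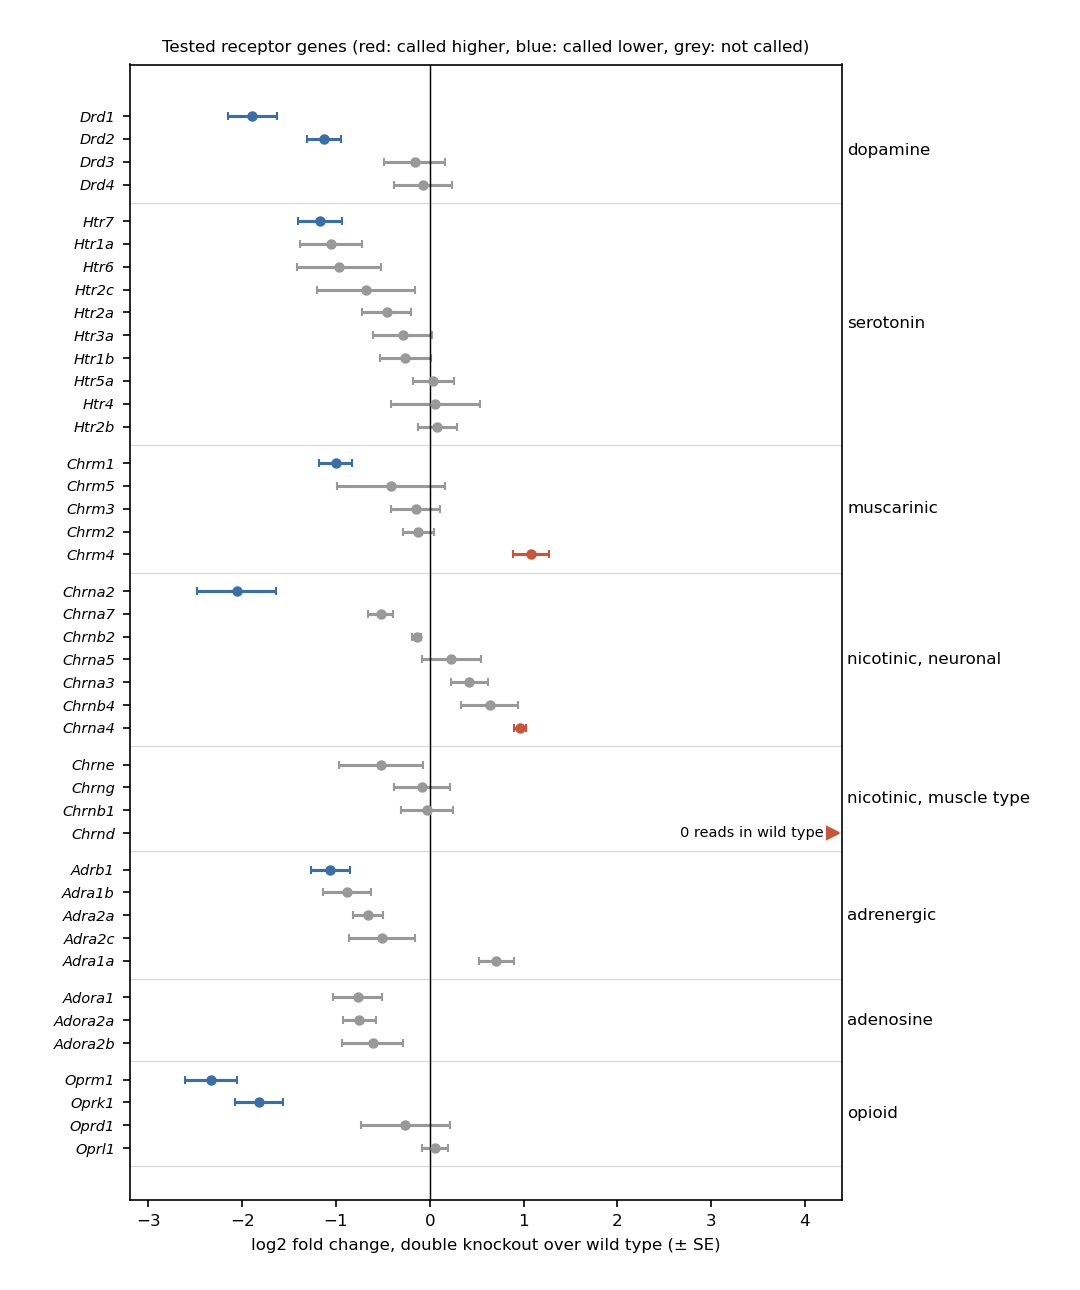
Log2 fold change of the double knockout over the wild type for tested receptor genes, grouped by family, with bars of 1 standard error; red and blue mark genes called higher and lower. Chrnd is drawn as an arrow because its wild-type libraries held 0 reads. Within the muscarinic and neuronal nicotinic families, called genes lie on both sides of 0.

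Dlx proteins bind DNA with the core TAATT. Promoters are shown for Drd1 and Drd2, which fell, and for Chrna4 and Chrm4, which rose. These genes were picked after their calls were seen, so the shared direction within each pair is not a result. Of the acetylcholine receptor genes Chrnd also rose, and Chrm1 and Chrna2 fell. The windows are the 250 bases before the most upstream listed start, printed 5′ to 3′ on the gene's strand. They come from RefSeq on GRCm38.p6, a different build from the one in the submitters' processing notes (GRCm39). Capitals mark GGGCGG or its complement CCGCCC, the box bound by Sp1-type factors.
Drd1 (chr13:54055659-54055908, minus strand): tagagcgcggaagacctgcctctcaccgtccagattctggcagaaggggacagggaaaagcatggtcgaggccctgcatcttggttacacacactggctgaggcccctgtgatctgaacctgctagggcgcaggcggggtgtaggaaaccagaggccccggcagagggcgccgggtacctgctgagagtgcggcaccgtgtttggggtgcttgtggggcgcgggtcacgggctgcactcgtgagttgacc
Drd2 (chr9:49340153-49340402, plus strand): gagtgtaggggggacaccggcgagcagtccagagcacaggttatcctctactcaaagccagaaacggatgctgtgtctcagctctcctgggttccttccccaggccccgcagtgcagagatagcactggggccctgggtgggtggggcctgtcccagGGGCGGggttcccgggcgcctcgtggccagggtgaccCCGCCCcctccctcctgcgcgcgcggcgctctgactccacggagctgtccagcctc
Chrna4 (chr2:181039178-181039427, minus strand): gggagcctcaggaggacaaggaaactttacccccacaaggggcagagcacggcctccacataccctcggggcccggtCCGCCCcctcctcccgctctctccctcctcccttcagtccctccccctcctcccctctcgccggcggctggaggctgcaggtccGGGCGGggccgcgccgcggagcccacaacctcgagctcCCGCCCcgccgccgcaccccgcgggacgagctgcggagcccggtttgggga
Chrm4 (chr2:91921939-91922188, plus strand): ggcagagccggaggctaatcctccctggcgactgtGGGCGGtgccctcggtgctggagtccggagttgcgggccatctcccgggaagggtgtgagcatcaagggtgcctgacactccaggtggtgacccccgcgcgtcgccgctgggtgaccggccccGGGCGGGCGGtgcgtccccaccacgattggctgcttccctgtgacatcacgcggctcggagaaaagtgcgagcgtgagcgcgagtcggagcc
All 4 windows were rich in G and C, at 64.0% in Drd1, 68.8% in Drd2, 74.4% in Chrna4 and 70.0% in Chrm4, against a median of 52.4% over all 32851 windows. None held TAATT or its complement AATTA, and neither did the windows of the other 3 called genes found in the table (Adrb1, Htr7 and Oprm1). TAATT occurred in 25.0% of all windows and in 10 of 53 receptor gene windows (18.9%), and its longer forms TAATTA and TAATTG, which overlap it, in 4.84% and 7.17% of all windows. GGGCGG occurred in 32.7% of all windows and in 23 of the 53 receptor gene windows (43.4%). In Drd1 it was found only in the window of a second, downstream start, which is not shown. These matches are letters in short windows and describe neither binding nor distant enhancers.

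Both dopamine receptor genes of the later striatal pathways fell. Drd1, the Gs-coupled receptor of direct pathway neurons, was at 3.04, 1.6 and 2.18 CPM in wild-type replicates 1 to 3 and at 0.632, 0.538 and 0.663 CPM in double knockout replicates 1 to 3. The double knockout libraries lay close together and all below the wild type, which spread widely. The level fell to 26.9% of the wild-type mean (log2 fold change -1.89, SE 0.262, adjusted p 0.00732). Drd2, the Gi/o-coupled receptor of indirect pathway neurons and of dopamine neurons themselves, was at 3.07, 3.22 and 3.07 CPM in the wild type and 1.59, 1.08 and 1.6 CPM in the double knockout. It fell to 45.5% of the wild-type mean (log2 fold change -1.13, SE 0.18, adjusted p 0.0137). Without any 1 of the wild-type libraries the adjusted p of Drd2 was 0.054, 0.0611 and 0.0534, so its call rested on all 3. The ratio of Drd1 to Drd2 reads per kb overlapped between genotypes, at 0.349 to 0.694 and 0.279 to 0.351.

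The other dopamine receptor genes were sparse. Drd3, which in the adult marks the ventral striatum, had 19 to 47 reads per library and an adjusted p of 0.904. Drd4 had 18 to 26 reads and an adjusted p of 0.957, and Drd5, the second Gs-coupled member, had 0 to 2 reads.

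**Figure D3:**
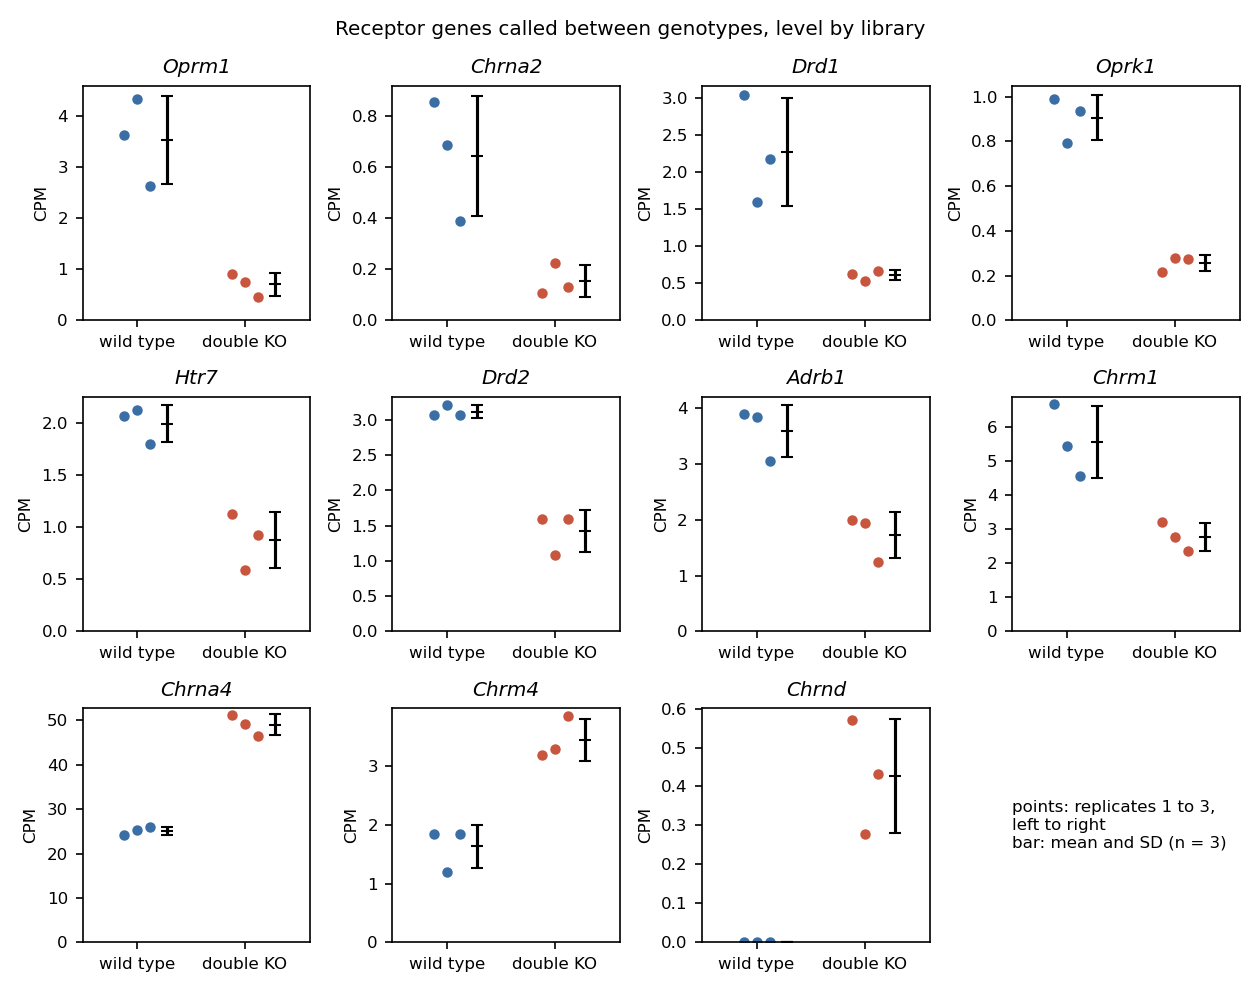
Level in CPM of the 11 called receptor genes in each library (points, replicates 1 to 3 from left to right; wild type blue, double knockout red), with mean and SD of 3 libraries beside them; each y axis starts at 0. No gene shows overlap between genotypes. Chrnd is at 0 in all 3 wild-type libraries.

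Of 14 serotonin receptor genes 10 were tested, and 1 was called, where 2.68% of all tested genes were called. Htr7, a Gs-coupled receptor, was at 2.06, 2.12 and 1.79 CPM in the wild type and 1.12, 0.59 and 0.923 CPM in the double knockout. It fell to 44.1% of the wild-type mean (log2 fold change -1.17, SE 0.239, adjusted p 0.0408). The call was lost without wild-type replicate 1, 2 or 3 (adjusted p 0.147, 0.14 and 0.0967) and without double knockout replicate 2 or 3 (0.0724 and 0.0652). Htr1a, the Gi/o-coupled receptor that dampens firing, was at 1.42, 1.26 and 1.34 CPM in the wild type and 0.786, 0.85 and 0.317 CPM in the double knockout. These values did not overlap and the mean was 48.6% of wild type, but the adjusted p was 0.187 (unadjusted 0.0119). Double knockout replicate 3 was the lowest of the 6.

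Among the other tested serotonin receptor genes the adjusted p ran from 0.405 for Htr6 to 0.979 for Htr4. Htr2a had the highest level of these, at 2.79 to 3.78 CPM for the wild type against 1.56 to 3.22 CPM for the double knockout, with overlap. Htr2c, the receptor that choroid plexus expresses strongly, was at 2.61 CPM in wild-type replicate 1 and at 0.49 to 1.18 CPM in the other 5 libraries. With this spread the wild-type mean of Htr2c (1.38 ± 1.06 CPM, SD, n = 3) describes no single library well. Wild-type replicate 1 is also the library with 1540 reads of Ttr, and a link between Ttr and Htr2c was not tested. Htr3a, the channel subunit gene that marks a class of interneurons from the caudal eminence, was at 0.529 to 1.13 and 0.555 to 0.822 CPM. For Htr5a the log2 fold change was 0.04 (SE 0.222), and for Htr2b it was 0.08 (SE 0.21). Htr1b and Htr2b share exon sequence with genes on the opposite strand, so their counts are uncertain.

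The muscarinic family split. Chrm4, the Gi/o-coupled receptor that in the adult striatum sits mainly on direct pathway neurons, was at 1.84, 1.20 and 1.85 CPM in the wild type and 3.19, 3.28 and 3.85 CPM in the double knockout. All double knockout libraries were above all wild-type ones, and the level rose 2.11-fold (log2 fold change 1.08, SE 0.195, adjusted p 0.0246). Chrm1, a Gq/11-coupled receptor of projection and excitatory neurons, was at 6.66, 5.45 and 4.57 CPM in the wild type and 3.20, 2.76 and 2.36 CPM in the double knockout. It fell to 50% of the wild-type mean (log2 fold change -1.0, SE 0.176, adjusted p 0.0218). Chrm4 thus moved opposite to Drd1, with which it is later coexpressed.

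Both muscarinic calls were near the threshold. That of Chrm4 was lost in 5 of the fits without 1 library, with adjusted p of 0.0631, 0.0551 and 0.0534 without wild-type replicates 1, 2 and 3 and of 0.0656 and 0.0633 without double knockout replicates 1 and 2. Its log2 fold change stayed between 0.90 and 1.18 over all alternatives. The call of Chrm1 was lost without wild-type replicate 1 or 2 (0.0835 and 0.0773) or double knockout replicate 2 (0.0764). A small RNA gene, Gm22820, lies on the opposite strand within the exons of Chrm1. Chrm2 (log2 fold change -0.12, SE 0.169), Chrm3 (-0.15, SE 0.261) and Chrm5 (-0.41, SE 0.577) overlapped between genotypes. Within each library, the ratio of Chrm4 to Chrm1 reads per kb was 1.25, 0.991 and 1.83 in the wild type and 4.48, 5.35 and 7.33 in the double knockout. This ratio was chosen after the values were seen and is given without a test. Its separation follows from the opposite changes of Chrm4 and Chrm1 and adds no support to either call.

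Chrna4 had the smallest adjusted p of all receptor genes. It encodes the alpha subunit that pairs with the product of Chrnb2 in the most common nicotinic receptor of the brain. It was at 24.2, 25.3 and 25.9 CPM in the wild type and 51.3, 49.2 and 46.5 CPM in the double knockout. The genotypes were far apart relative to their spread, and the level rose 1.95-fold (log2 fold change 0.96, SE 0.0626, adjusted p 1.15e-04). Chrnb2 was at 92.1, 86.1 and 89.5 CPM in the wild type and 82.0, 81.9 and 78.2 CPM in the double knockout. Its values did not overlap either, but the difference was small (log2 fold change -0.14, SE 0.0471) and the adjusted p was 0.203. Exons of Chrnb2 overlap Adar on the opposite strand, so its counts are uncertain.

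The proportion of the pair differed between every library of one genotype and every library of the other. Per kilobase, Chrna4 reads were 0.439, 0.489 and 0.483 of those of Chrnb2 in the wild type, and 1.04, 1.0 and 0.992 in the double knockout. The ratio was chosen after the values were seen and is given without a test. It compares RNA levels and says nothing of subunits in assembled channels.

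**Figure D4:**
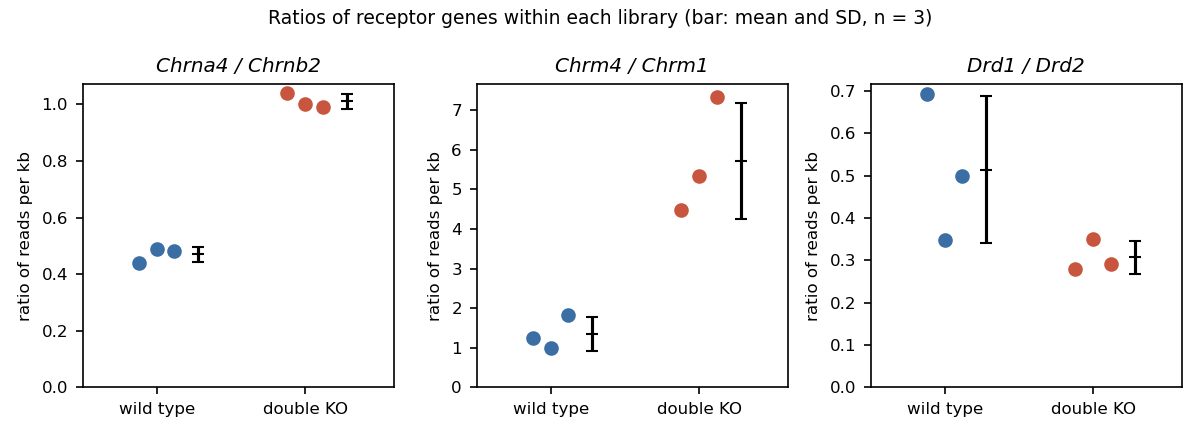
Ratio of reads per kilobase within each library for Chrna4 to Chrnb2, Chrm4 to Chrm1 and Drd1 to Drd2 (points, replicates 1 to 3 from left to right; bars, mean and SD of 3 libraries; y axes start at 0). The first lies at 0.439 to 0.489 for the wild type against 0.992 to 1.04 for the double knockout. The second separates the genotypes too, which follows from the opposite changes of its genes, and the third overlaps. The ratios were chosen after the values were seen.

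Other neuronal nicotinic genes differed in direction. Chrna2, an alpha subunit gene of few interneuron types, was at 0.853, 0.685 and 0.39 CPM in the wild type and 0.108, 0.225 and 0.13 CPM in the double knockout, or 25 to 50 reads against 7 to 13. It fell to 24% of the wild-type mean (log2 fold change -2.06, SE 0.422, adjusted p 0.0417). It had the largest adjusted p of the 11 called genes, and its call was kept only without wild-type replicate 3 among the fits that left out 1 library. The adjusted p was 0.174 and 0.136 without wild-type replicates 1 and 2, and 0.147, 0.0588 and 0.0942 without double knockout replicates 1, 2 and 3. Chrna7, whose product forms channels by itself, was at 6.72, 6.13 and 5.52 CPM in the wild type and 3.91, 3.99 and 4.86 CPM in the double knockout. The genotypes did not overlap, and the adjusted p in edgeR was 0.0934 with all libraries and 0.0432 without double knockout replicate 3. In DESeq2 with all libraries it was 0.0146.

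Chrna5, Chrna3 and Chrnb4 are neighbours on chromosome 9 and together encode the main nicotinic receptor of autonomic ganglia. Chrna3 was at 4.52, 4.48 and 5.02 CPM in the wild type and 6.75, 7.72 and 4.37 CPM in the double knockout, where replicate 3 lay below all wild-type values. Chrnb4 had 16 to 34 reads for the wild type against 36 to 51 for the double knockout, and Chrna5 had 33 to 83 and 60 to 80. Only Chrnb4 did not overlap. Their adjusted p were 0.409, 0.418 and 0.848, so none was called. Of 8 markers of peripheral and autonomic neurons 7 had 12 reads or fewer in every library, and the eighth, Gata3, had 10 to 12 reads for the wild type against 23 to 60 for the double knockout (adjusted p 0.0561). The sum of this list was 0.41 to 0.421 CPM for the wild type against 0.676 to 1.3 CPM for the double knockout. Within the list only Gata3 did not overlap between genotypes, at 0.156 to 0.205 and 0.399 to 0.865 CPM. The part of such neurons in the levels of Chrna5, Chrna3 and Chrnb4 was not tested.

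Chrnd, the delta subunit gene of the muscle receptor, had 0 reads in all 3 wild-type libraries and 37, 16 and 30 in the double knockout, or 0.57, 0.278 and 0.432 CPM. Against a floor of 3 counts in each wild-type library it was at least 8.85-fold higher, with an adjusted p of 0.00884. No other muscle-type gene was called. Its neighbour on chromosome 1, Chrng, the gamma subunit gene of the fetal receptor, had 30, 45 and 23 reads in the wild type and 35, 28 and 32 in the double knockout. Chrnb1 was at 0.933 to 1.62 and 0.865 to 1.37 CPM, Chrne had 7 to 19 reads, and Chrna1, without which no muscle receptor forms, had 1 to 12 reads.

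Markers of skeletal muscle were present at unlike levels in both genotypes. Myog, Myod1 and Myf5 had 0 to 6 reads in any library, while Ttn had 140 to 246 and Acta1 78 to 128. The summed level of 8 muscle markers overlapped, at 5.22 to 6.09 CPM for the wild type against 4.22 to 6.68 CPM for the double knockout. The part of muscle RNA in the level of Chrnd was not tested. Of the 5 muscle markers tested none was called in edgeR or DESeq2, and 1 had an unadjusted p under 0.05 in edgeR. That marker was higher in the double knockout, at a mean of 0.448 CPM against 0.228 CPM, with overlap between genotypes. Prss56, the protein-coding gene on the other side of Chrnd, had 0 to 3 reads. No exon of another annotated gene overlaps Chrnd in GENCODE M21. In absolute terms its level in the double knockout, 0.13 CPM per kb, was far below that of Chrna4, at 9.75.

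Among the adrenergic receptor genes, 6 of 9 were tested and 1 was called in edgeR, while DESeq2 called 3 (Adrb1, Adra2a and Adra1a). Of all tested genes edgeR called 2.68% and DESeq2 5.34%. Adrb1, the Gs-coupled receptor shared by heart and forebrain, was at 3.89, 3.84 and 3.06 CPM in the wild type and 2.0, 1.94 and 1.25 CPM in the double knockout. It fell to 48.2% of the wild-type mean (log2 fold change -1.06, SE 0.205, adjusted p 0.033). The call was lost in 5 fits without 1 library, with adjusted p of 0.133, 0.122 and 0.058 without wild-type replicates 1, 2 and 3 and of 0.0654 and 0.0683 without double knockout replicates 1 and 2. Adra2a, the Gi/o-coupled receptor with the highest level per kb in this family, was at 13.9, 12.9 and 13.1 CPM in the wild type and 9.55, 9.49 and 6.17 CPM in the double knockout (adjusted p 0.0784). Adra1a, a Gq/11-coupled receptor, was higher in each double knockout library, at 6.32, 4.80 and 3.91 CPM against 3.45, 3.0 and 2.74 CPM (log2 fold change 0.71, SE 0.189, adjusted p 0.111).

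Double knockout replicate 3 mattered for both of these genes. Without it the adjusted p was 0.0295 for Adra2a and 0.0302 for Adra1a. With all libraries it was 0.00158 and 0.0106 in DESeq2, and 0.0183 and 0.042 in edgeR with no filter on low counts. It was also low for Adra2c, at 0.836 CPM against 2.36 to 3.02 CPM in the other 5 libraries. Adra1b was at 1.35, 0.809 and 0.904 CPM in the wild type and 0.585, 0.503 and 0.562 CPM in the double knockout, without overlap, and had an adjusted p of 0.151.

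No adenosine receptor gene was called in edgeR with all 6 libraries, the filter on low counts and no block. Of the 3 tested, 2 (Adora2a and Adora1) had an unadjusted p under 0.05, and DESeq2 called both. Of all tested genes 13.3% had an unadjusted p under 0.05 in edgeR, and DESeq2 called 5.34%. With no filter on low counts edgeR called Adora2a (adjusted p 0.0264). Adora2a, the Gs-coupled partner of Drd2 in indirect pathway neurons, was at 6.43, 4.19 and 4.36 CPM in the wild type and 3.08, 2.88 and 2.91 CPM in the double knockout. The groups did not overlap, the mean was 59.2% of wild type and the adjusted p was 0.0733. Adora1, the Gi/o-coupled receptor of most neurons, was at 10.4, 9.16 and 7.09 CPM in the wild type and 6.58, 5.93 and 3.13 CPM in the double knockout (58.8% of wild type, adjusted p 0.224). Exons of Adora1 overlap Mybph on the opposite strand. Adora2b had 13 to 39 reads and an adjusted p of 0.488.

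The opioid family held the decrease with the smallest adjusted p of any receptor gene. Oprm1, the mu receptor gene and target of morphine, was at 3.63, 4.34 and 2.63 CPM in the wild type and 0.909, 0.746 and 0.461 CPM in the double knockout. It fell to 19.9% of the wild-type mean (log2 fold change -2.33, SE 0.28, adjusted p 0.00331). Oprm1 and Ipcef1 share 96 bases of exon on opposite strands, and Ipcef1 had an adjusted p of 0.501. Oprk1, the kappa receptor gene, was at 0.99, 0.793 and 0.935 CPM in the wild type and 0.216, 0.278 and 0.274 CPM in the double knockout. It fell to 28.2% (log2 fold change -1.82, SE 0.252, adjusted p 0.00719), with 14 to 19 reads left in each library.

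The remaining opioid receptor genes gave no call. Oprl1 was at 45.4, 37.6 and 39.3 CPM in the wild type and 49.0, 45.3 and 33.2 CPM in the double knockout, with a log2 fold change of 0.06 (SE 0.138). Oprd1, the delta receptor gene, had 7 to 26 reads and an adjusted p of 0.894. Per kilobase, the ratio of Oprm1 to Oprl1 reads was 0.0313 to 0.0539 for the wild type against 0.00648 to 0.00866 for the double knockout, given without a test.

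**Figure D5:**
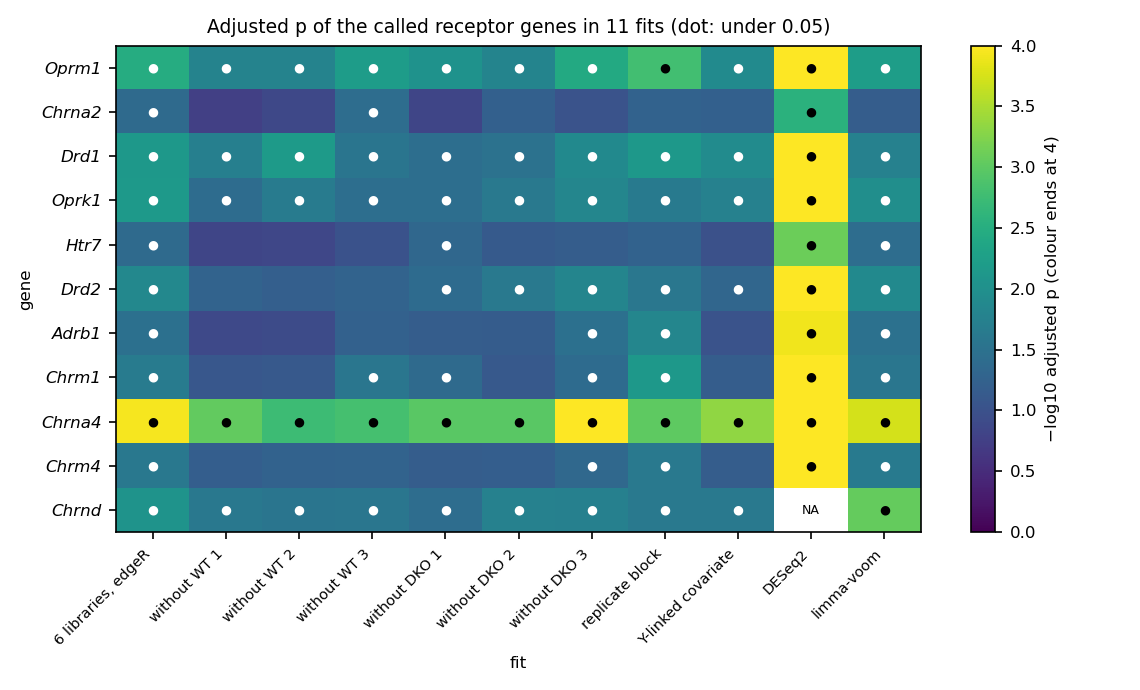
Adjusted p of the 11 called receptor genes (rows) in 11 fits (columns): edgeR on all 6 libraries, without each library in turn (WT, wild type; DKO, double knockout), with a replicate block or a Y-linked covariate, and with DESeq2 and limma-voom; colour gives −log10 of the adjusted p and a dot marks values under 0.05. Chrna4, Oprm1, Oprk1 and Drd1 have a dot in every column, and Chrnd in every column where it has a value.

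Calls were found in every class of signalling, where 2.68% of all tested genes were called. Those of Htr7, Adrb1, Drd2, Chrm1, Chrm4 and Chrna2 were each lost in some fits without 1 library, as given above. Of the Gs-coupled genes 8 of 10 were tested and 3 fell (Drd1, Htr7 and Adrb1), with a median log2 fold change of -0.86. Of 15 tested Gi/o-coupled genes 3 fell (Drd2, Oprm1 and Oprk1) and Chrm4 rose, with a median of -0.26. The Gq/11-coupled genes had 1 decrease among 8, Chrm1, and a median of -0.44. Ion channel genes had 2 increases and 1 decrease among 12, and a median of -0.06. Over all tested genes the median was 0. The summed level of the Gs-coupled genes was 12.8 to 17.2 CPM for the wild type against 6.72 to 8.15 CPM for the double knockout. That of the ion channel genes was higher in the double knockout, at 139 to 149 CPM against 127 to 132 CPM. The sums of the Gi/o-coupled and Gq/11-coupled genes overlapped. So did that of all 57 genes, at 242 to 270 and 216 to 263 CPM. The classes were formed after the values were seen.

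Genes that make, carry or remove the ligands were examined next, with edgeR unless another tool is named. In the monoamine list 2 of 10 tested genes were called, both lower, where 2.68% of all tested genes were called. Th, the rate-limiting enzyme of dopamine synthesis, fell from 5.0 ± 0.177 to 1.80 ± 0.503 CPM (SD, n = 3; adjusted p 0.00492), and Slc18a2, which loads monoamines into vesicles, fell from 56.1 ± 2.72 to 17.3 ± 0.566 CPM (adjusted p 5.50e-06). None of 5 acetylcholine genes was called in edgeR or DESeq2, and 1 had an unadjusted p under 0.05. Of 4 opioid precursor genes Penk, the enkephalin gene, fell from 1.76 ± 0.226 to 0.677 ± 0.144 CPM (adjusted p 0.0143, and 0.064 and 0.0647 without wild-type replicates 1 and 2). Among 8 adenosine genes the transporter gene Slc29a4 fell, to 84.9% of the wild-type mean (adjusted p 0.0442, and 0.112 to 0.181 without any 1 library other than double knockout replicate 3), and DESeq2 called 2 genes of this list.

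Of 9 tested genes for nicotinic receptor assembly and accessory proteins, 4 fell, where 1.34% of all tested genes were called lower. Tmem35a, a chaperone that nicotinic receptors need for assembly, fell to 72.1% of the wild-type mean (adjusted p 0.0241). Lypd1, Lypd6 and Lypd6b, whose products bind nicotinic receptors and alter their response, fell to 57%, 67.6% and 48.8% (adjusted p 0.0204, 0.0152 and 0.0155). Each of these 4 calls was lost in at least 2 fits without 1 library, with adjusted p of up to 0.0998, 0.0904, 0.071 and 0.0644. The median log2 fold change of the list was -0.13. None rose.

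Downstream of the receptors, 3 of 31 genes of G protein and cyclic AMP signalling were called, all lower, where 1.34% of all tested genes were called lower. DESeq2 called 7 of this list, where it called 5.34% of all genes. Gng7, the G protein gamma subunit of the striatum, fell to 68.8% of the wild-type mean (adjusted p 0.0131, and 0.0614 and 0.0517 without wild-type replicates 1 and 3). Pde10a, a striatal phosphodiesterase, fell to 70.2% (adjusted p 0.0262), and was lost without any 1 wild-type library (0.105, 0.0519 and 0.086) and without double knockout replicate 2 (0.0603). The median of the 31 genes was -0.07.

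The neighbours of the 11 called genes on the chromosome were examined last. There were 22 listed in the count table, of which Gm10945 had 0 reads in every library. Of the 22, 15 were tested, including the receptor gene Chrng. None of these 15 was called in edgeR or DESeq2, and none had an unadjusted p under 0.05. Among all tested genes edgeR called 2.68%, and 13.3% had an unadjusted p under 0.05. Most untested neighbours overlapped between genotypes, but Ankk1 and Npbwr1 were lower without overlap, like the receptor genes beside them. Ankk1, next to Drd2, had 6 to 8 wild-type reads against 0 to 1. Npbwr1, next to Oprk1, had 8 to 14 against 0 to 6. With so few reads, whether these neighbours changed was not tested. The sums of the other marker lists overlapped between genotypes. Vessel markers were at 170 to 202 CPM for the wild type against 185 to 215 CPM for the double knockout, microglia at 33.7 to 42.2 and 33.1 to 48.2, blood at 107 to 134 and 97.6 to 154, and meninges at 24.8 to 39.3 and 28.1 to 29.0. No gene of these 4 lists was called in edgeR or DESeq2 or had an unadjusted p under 0.05. Of the 9 cortical excitatory markers, edgeR called Neurod2, which fell to 69.2% of the wild-type mean (adjusted p 0.00127). DESeq2 called 5, where it called 5.34% of all genes, and 8 had an unadjusted p under 0.05 in edgeR.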

How the data were processed

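The authors deposited whole-number read counts per gene and library. Per the submitters' processing notes, featureCounts and GRCm39 were used. The aligner, annotation release, versions and strand settings are not given in the sources used here. Per the labels' protocols, libraries were stranded, ribosomal RNA-depleted total RNA, so unspliced RNA is also present. Of 55416 rows 1492 had no symbol.

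Genes were filtered with filterByExpr (minimum count 10, minimum total 15) in edgeR 4.0.16, scaled by TMM and tested with the quasi-likelihood test (prior count 0.125, R 4.3.3, Benjamini-Hochberg adjustment over all 23628 tested genes, called at adjusted p under 0.05). SE is the log2 fold change divided by the root of F. Floors are 3 counts and cover counting error only. Exon lengths, neighbours and overlaps came from GENCODE M21 (GRCm38), not known to be the authors' release. Promoter windows were found for 43 of the 57 genes. Alternatives included DESeq2 1.42.0 and limma 3.58.1 (voom).

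Members, lists and tests were chosen with earlier results of these data known. A few genes are counted but not reported here by name. Values by library are given for genes called, with an unadjusted p under 0.05, or highest per kb in their family, and for some others chosen after their values were seen. Other called genes of each list are named, at most 4 per direction and list, beside those of the eminence list. Coupling classes, ratios and the choice of promoters shown were made after values were seen.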

Additional observations from a re-analysis of the deposited data

How the results depend on the processing

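Receptor calls numbered 11 with all libraries. They numbered 6 with the Y-linked covariate, 5 at an adjusted p under 0.01, and 5 to 13 in the 6 fits that each left out 1 library. The number of all genes called was 634. It was 1162 with DESeq2, 361 with the Y-linked covariate, 275 at an adjusted p under 0.01, 180 when a log2 fold change of 1 or more in size was required too, and 309 to 749 in the fits without 1 library. Each library other than double knockout replicate 3 moved the number of all genes by over 1.5 times when left out: 309, 325 and 403 without wild-type replicates 1, 2 and 3, and 380 and 402 without double knockout replicates 1 and 2. The causes were not tested. Scaling by total count gave 390 genes higher and 256 lower, in place of 317 and 317, with 11 receptor genes called as before. DESeq2 gave Chrnd no adjusted p.

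With the replicate number as a block, 11 receptor genes were called, 4 higher and 7 lower, of which 9 were among the 11, and 690 genes in all (2.92%). Chrna2 and Htr7 were lost, at adjusted p of 0.0554 and 0.0559, and Adra1a and Adora1 were gained, at 0.0426 and 0.0266. Same-numbered libraries had correlations of -0.125, -0.0173 and 0.0502 in their deviations from the group means, so the numbers were not taken as pairs.

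All called receptor genes kept their direction in every fit. Among genes called, with an unadjusted p under 0.05, or highest per kb in their family, only the uncalled Chrnb1 and Oprl1 changed sign. The signs of the other tested receptor genes were not compared across fits. Chrnb1, at -0.03 with all libraries, had a log2 fold change of 0 with total count scaling and 0.06 with the Y-linked covariate. It ran from -0.17 to 0.28 without 1 library (0.28 without wild-type replicate 3 and 0.15 without double knockout replicate 3). Oprl1, at 0.06, had -0.06 without double knockout replicate 1 and up to 0.22 without double knockout replicate 3. Chrna2, Chrnd and Oprk1 had at most 60 reads in any library, the fewest of the called genes.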
